A study of Mus musculus with 2 samples.

Results

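The genes of the postsynaptic scaffold families Dlg, Shank and Homer were examined for open chromatin in mouse cerebral cortex. The 10 members, Dlg1 to Dlg4, Shank1 to Shank3 and Homer1 to Homer3, were chosen by family name, not by their values, and were 10 of the 21938 protein-coding genes of GENCODE M21 on 21 chromosomes of mm10. Each gene was taken with its body and 20 kb on each side. DNase I hypersensitivity sequencing, in which the enzyme cuts chromatin where it is open, had been done on the left cerebral cortex of male B6CASTF1/J mice at 14 days; this F1 strain is a cross of C57BL/6J and CAST/EiJ. The study held 1 group with 2 libraries and no treated, mutant or control samples, so that no conditions could be compared. The label of replicate 1 names 3 males and that of replicate 2 names 1 male, so that replicate 1 is a pool, while both carry the same donor identifier. The SD between the libraries therefore may not measure the spread between animals.

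At excitatory synapses these proteins form the layered scaffold under the postsynaptic membrane. Dlg proteins are membrane-associated guanylate kinases whose PDZ domains bind NMDA receptors and the auxiliary subunits of AMPA receptors; Dlg4 encodes PSD-95, the most studied of them. Shank proteins lie deeper and join the Dlg layer, through Dlgap proteins, to Homer and the actin cytoskeleton, and Homer proteins bind Shank and group I metabotropic glutamate receptors. Cortex at this age is in a period of rapid synapse formation.

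The members lie on 7 chromosomes, with Dlg2, Shank1, Shank2 and Homer2 on chromosome 7. In mm10 the gene bodies are Dlg1 at chr16:31663443-31875129, Dlg2 at chr7:90476672-92449247, Dlg3 at chrX:100767722-100818410 and Dlg4 at chr11:70016942-70047522. The Shank genes are Shank1 at chr7:44310253-44360572, Shank2 at chr7:144001928-144424494 and Shank3 at chr15:89499623-89560261. The Homer genes are Homer1 at chr13:93299635-93405129, Homer2 at chr7:81600481-81707527 and Homer3 at chr8:70282827-70294361. Homer2 is on the minus strand and the other members are on the plus strand.

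The tissue was bulk cortex, in which fewer open cells of a type and less open chromatin per cell cannot be told apart. Of 5 marker genes of excitatory neurons, all 5 had a peak at an annotated start in both libraries, as had 3 of 3 each for inhibitory neurons, astrocytes, the oligodendrocyte lineage and microglia. Of the endothelial markers, 2 of 3 did, and Cldn5 did not, and of 3 liver genes none did. The libraries held 150726 peaks in replicate 1 and 155536 in replicate 2, with medians of 0.549 and 0.663 for the authors' peak signal, which is the height of the cleavage density in the peak after the authors' scaling. The part of other cell types in the member signals was not tested. Read depth is not given in the files.

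Printed here are the sites on which the account of the members turns, namely the strongest start sites of the Dlg, Shank and Homer families, the strongest start site of Shank2, and the strongest intron sites of Dlg2 and Dlg4. The 5'-most start of Shank3 is given beside its stronger internal start. The Dlg2 start site also overlaps the body of Tmem126b. All sites are in mm10 and on the plus strand, which is the coding strand of these 5 genes. The bases printed and searched are those of the reference assembly, and CAST/EiJ bases were not examined. Capitals mark bases that lay in a footprint, a stretch protected from cutting within open chromatin, in both libraries.
Homer1 coding start (chr13:93303541-93303786): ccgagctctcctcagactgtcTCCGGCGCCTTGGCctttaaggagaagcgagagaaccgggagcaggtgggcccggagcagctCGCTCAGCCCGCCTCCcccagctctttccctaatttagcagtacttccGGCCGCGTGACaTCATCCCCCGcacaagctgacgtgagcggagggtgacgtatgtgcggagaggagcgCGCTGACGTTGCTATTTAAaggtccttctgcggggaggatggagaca
Dlg2 5'-most start (chr7:90475941-90476220): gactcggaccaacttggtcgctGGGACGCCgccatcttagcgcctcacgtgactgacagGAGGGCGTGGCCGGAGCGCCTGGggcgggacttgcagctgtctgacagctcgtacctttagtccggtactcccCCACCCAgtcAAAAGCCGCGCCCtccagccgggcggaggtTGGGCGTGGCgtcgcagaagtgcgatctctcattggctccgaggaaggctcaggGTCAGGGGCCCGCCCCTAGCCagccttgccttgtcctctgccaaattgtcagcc
Dlg2 intron site (chr7:91457261-91457460): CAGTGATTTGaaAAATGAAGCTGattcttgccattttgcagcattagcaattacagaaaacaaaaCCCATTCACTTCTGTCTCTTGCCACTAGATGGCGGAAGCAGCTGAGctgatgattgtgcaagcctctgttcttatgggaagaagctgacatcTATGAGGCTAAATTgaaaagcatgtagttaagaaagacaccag
Dlg4 intron site (chr11:70021411-70021710): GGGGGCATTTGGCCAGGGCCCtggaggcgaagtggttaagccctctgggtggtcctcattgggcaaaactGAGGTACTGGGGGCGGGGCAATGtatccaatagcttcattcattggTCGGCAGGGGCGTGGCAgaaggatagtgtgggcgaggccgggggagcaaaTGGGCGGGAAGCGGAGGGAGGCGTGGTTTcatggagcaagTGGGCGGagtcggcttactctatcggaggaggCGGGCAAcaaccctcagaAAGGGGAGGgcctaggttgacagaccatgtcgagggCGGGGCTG
Shank3 internal start (chr15:89532661-89532860): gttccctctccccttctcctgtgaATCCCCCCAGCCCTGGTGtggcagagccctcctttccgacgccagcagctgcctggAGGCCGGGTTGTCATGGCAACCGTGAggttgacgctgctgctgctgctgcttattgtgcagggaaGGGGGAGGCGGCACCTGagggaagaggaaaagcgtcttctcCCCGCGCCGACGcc
Shank3 5'-most start (chr15:89498701-89498920): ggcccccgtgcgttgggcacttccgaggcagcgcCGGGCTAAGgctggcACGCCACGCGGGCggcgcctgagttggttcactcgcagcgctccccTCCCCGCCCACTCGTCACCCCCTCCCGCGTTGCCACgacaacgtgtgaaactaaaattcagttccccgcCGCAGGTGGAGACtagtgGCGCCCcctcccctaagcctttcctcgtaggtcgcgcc
Shank2 last start (chr7:144417641-144417860): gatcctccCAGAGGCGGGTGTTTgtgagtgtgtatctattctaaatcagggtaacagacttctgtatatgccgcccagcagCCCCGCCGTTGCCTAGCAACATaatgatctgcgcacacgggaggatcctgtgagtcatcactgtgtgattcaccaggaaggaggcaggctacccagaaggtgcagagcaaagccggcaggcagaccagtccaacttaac

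The capitals cover 70 of the 246 bases printed for Homer1 and 82 of 280 for the Dlg2 start. They cover 81 of 200 for the Dlg2 intron and 121 of 300 for the Dlg4 intron. At Shank3 they cover 73 of 200 bases at the internal start and 77 of 220 at the 5'-most start. At the last start of Shank2 they cover 37 of 220 bases, the smallest share of the 7 sites.

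A start was called open when a peak lay within 1000 bp of it in both libraries, with the 5'-most start of a gene (and starts within 1000 bp of it) kept apart from starts further in. Of the 10 members, 8 were open at the 5'-most start, and Dlg4 and Shank2 were not; of all protein-coding genes 61.8% were. All 10 members were open at some annotated start, against 66.6% of all genes. With 10 genes in 1 tissue these shares are descriptions and were not tested. In each pair of signals below, the first is from replicate 1 and the other from replicate 2.

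Among the Dlg genes, Dlg2, which encodes PSD-93, had the strongest 5'-most start, with a peak signal of 8.05 in replicate 1 and 11.2 in replicate 2. That peak lay 452 bp upstream of the nearest Dlg2 start. It overlapped the body of Tmem126b, within 1000 bp of the start of that gene, so that the share of either gene in it could not be told apart. Dlg3, the X-linked member that encodes SAP102, had 1.83 and 2.50 at its 5'-most start (replicates 1 and 2). The mice were male, and no signal was adjusted for their single X chromosome. Dlg1, which encodes SAP97, had 2.09 and 1.72 at its 5'-most start. Dlg3 and Dlg1 overlapped in their values, and Dlg2 stood above both in each library. Dlg4 had no peak within 1000 bp of its 5'-most start in either library. The nearest upstream site, centred 1.51 kb before that start with signals of 3.00 and 4.01, lay at the start of Acadvl. The nearest downstream site, centred 1.42 kb after it with 2.19 and 2.97, overlapped the next group of Dlg4 starts and was given to that group. In replicate 2 this downstream peak also lay within 1000 bp of the last start of the 5'-most group, at base 70017275.

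Among the Shank genes, Shank3 had 2.99 and 3.59 at its 5'-most start and Shank1 had 1.67 and 2.48, again in replicates 1 and 2, so that their values did not overlap. The strongest peak of Shank1 lay 728 bp downstream of the annotated start and that of Shank3 703 bp upstream of it. Shank2 had no peak at its 5'-most start. Of the Homer genes, Homer3, which is known for its place in cerebellar Purkinje cells, had 1.60 and 1.97, Homer2 had 0.474 and 0.577, and Homer1 had 0.464 and 0.651. The 5'-most start of Homer1 belongs to a processed transcript with no coding sequence, and its strongest peaks in the libraries were different sites. The 8 open members had a median 5'-most signal of 1.75 and 2.22, against 3.61 and 4.04 over all protein-coding genes open there.

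The distance limit decided the calls of Shank1, which was not open at the 5'-most start within 500 bp, and of Dlg4, which was open within 2500 bp. The outermost peak within it was that of Homer1 in replicate 1, at 993 bp with a signal of 0.464. Just beyond it lay a flanking site of Shank3 at 1303 bp with 0.715 and 0.921, the site at the Acadvl start, 1422 bp from the Dlg4 start, with 3.00 and 4.01, and an intron site of Dlg3 at 1486 bp with 0.336 and 0.473. The Dlg4 site centred 1.42 kb after its 5'-most start is not among these, since it overlapped a nearer start.

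Internal starts carried the stronger signal in several members. An internal start was stronger than the 5'-most start in both libraries in 5 of 10 members, Dlg4, Shank1, Shank2, Shank3 and Homer1. Of the 12679 protein-coding genes with internal starts, 14.5% were called so. Dlg4 and Shank2 had no peak at the 5'-most start, so that an internal peak in both libraries counted as stronger. With starts of protein-coding transcripts only, the members called so were Dlg2, Dlg4, Shank2 and Shank3, without Shank1 and Homer1. Dlg2 was called so by 0.900 against 0.890 in replicate 1 and 1.01 against 0.971 in replicate 2. The 5'-most signal of Homer1 then averaged 8.52. The members had a median of 4 internal start groups (starts chained at gaps of at most 1000 bp), against 2 over all genes with any. Of the 44 internal start groups of the members, 19 were open, against 19.7% of all 27427 such groups.

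Homer1, whose products include long Homer proteins and the short, activity-induced Homer1a, was most open at its group of coding starts 4.12 kb downstream of the 5'-most one. The signal there was 7.11 in replicate 1 and 9.93 in replicate 2, with 9 and 5 footprints in the peaks of that group. This is the first site printed above, and it overlaps the annotated start.

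With the limit of 1000 bp, each Shank gene was strongest at the last annotated start group, counted from the 5' end. In Shank3, whose loss causes Phelan-McDermid syndrome in people, the coding start 33.3 kb into the gene had 4.10 and 4.90, and a start 31.2 kb in had 2.49 and 1.87. In Shank2 the last start, of a processed transcript 416 kb into the gene, had 3.43 and 5.24. The coding starts of this gene were weaker than that last start in both libraries. Those at 283 kb and 174 kb had 1.73 and 1.87, and 1.22 and 1.40. All 3 of these Shank2 sites overlapped the start. In Shank1 the group 40.5 kb in had 3.82 and 3.43, but its only start is that of a retained-intron transcript, and the peak lay 579 bp from it; within 500 bp the strongest internal start of Shank1 averaged 1.22, against 3.63 within 1000 bp. The Shank1 groups at 2.44 kb and 25.8 kb had 1.29 and 2.39, and 1.18 and 1.76.

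Dlg4 was open at 3 internal groups. The coding starts from 12.5 kb had 2.86 and 4.23, those from 1.50 kb had 2.19 and 2.97, and those from 9.88 kb had 0.720 and 1.05. In Dlg2, 5 of 7 internal groups were open, with signals between 0.308 and 1.43, all below the 5'-most start. With starts of protein-coding transcripts only, the 5'-most signal of Dlg2 averaged 0.930, against 9.61 with all starts. The peak of 8.05 and 11.2 ends at base 90476220, and the last start of the 5'-most group is at base 90477231. The coding start thus lay just over 1000 bp from that peak, which was lost by the limit. An internal start of Dlg2 was then the stronger one, with 0.900 against 0.890 in replicate 1 and 1.01 against 0.971 in replicate 2. The largest distance between its 5'-most start and an open internal start was 1758 kb, in a gene of 1973 kb. Dlg1 had 1 open internal group of 9, with 1.29 and 1.36 at 90.9 kb, and Dlg3 had 1 of 4, with 1.26 and 1.25 at 9.56 kb. The only start of that Dlg3 group is that of a processed transcript. Its peak lay 485 bp away in replicate 1 and 502 bp in replicate 2, so that it was not open in both libraries within 500 bp. Homer2 and Homer3 had no open internal start, of 2 and 3 groups.

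**Figure D1:**
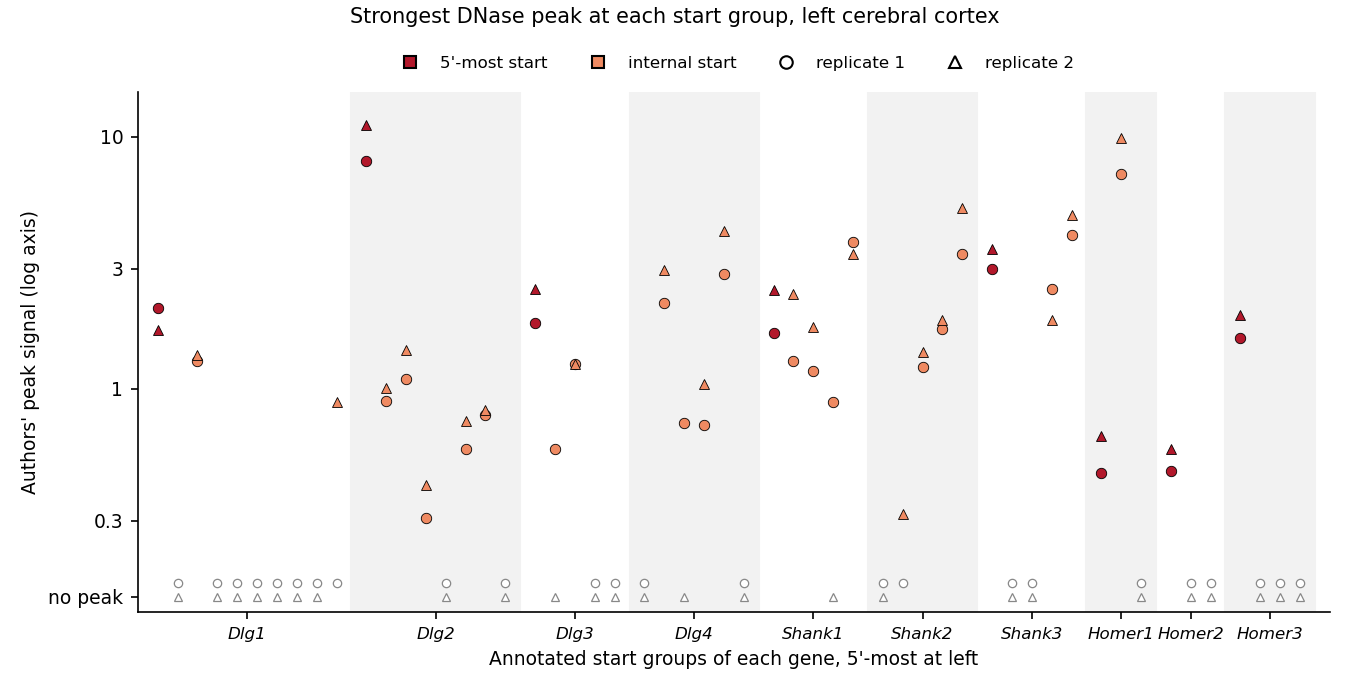
Strongest peak signal (log axis) at each annotated start group of the 10 genes, the 5'-most group at the left of each gene; circles are replicate 1, triangles replicate 2, and open symbols on the bottom line stand for no peak. Homer1, Shank1 and Shank3 have an internal group (orange) above the 5'-most one (red) in both libraries, with 7.11 and 9.93 at Homer1. Dlg4 and Shank2 have internal groups with peaks in both libraries and no peak at the 5'-most one.

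The members were ordered by their strongest start within 1000 bp, and most neighbours in that order overlapped. Dlg2 averaged 9.61 ± 2.21 and Homer1 8.52 ± 1.99 (SD, n = 2 libraries, here and below), and these overlapped, while both Homer1 values lay above those of Shank3, the next gene. Shank3 averaged 4.50 ± 0.569, Shank2 4.34 ± 1.28, Shank1 3.63 ± 0.271 and Dlg4 3.55 ± 0.970, each overlapping the next in this order, although Shank3 and Shank1 did not overlap. Within 500 bp the strongest internal start of Shank1 averaged 1.22, and within 2500 bp that of Dlg4 averaged 8.62, so that the places of these 2 genes depended on the window. The place of Dlg2 rested on the peak that overlapped the body of Tmem126b near the start of that gene. With starts of protein-coding transcripts only, that peak lay just over 1000 bp from the coding start, and the 5'-most signal of Dlg2 averaged 0.930. Both Dlg4 values lay above those of Dlg3, which were not adjusted for the single X chromosome of males. Dlg3 averaged 2.17 ± 0.472, Dlg1 1.91 ± 0.264 and Homer3 1.78 ± 0.261, also overlapping. Homer2, known from studies of drug and alcohol responses, was lowest at 0.525 ± 0.0734. Among protein-coding genes with an open start, Dlg2 stood at the 89.3rd percentile, Homer1 at the 84.5th and Homer2 at the 5.21st. The median over the members was 3.15 and 3.83, against 3.63 and 4.05 over all such genes.

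Away from any start, the strongest sites of the region belonged to Dlg4 and Shank1. The Dlg4 intron site at chr11:70021401-70021720, 4.62 kb into the gene and 2200 bp from the nearest Dlg4 start, had signals of 7.59 and 9.64 in replicates 1 and 2. It was stronger in both libraries than every annotated start of Dlg4, and it held 8 and 7 footprints. A second intron site 3.97 kb in had 1.73 and 2.43.

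Shank1 had a site 5.02 kb upstream of its 5'-most start, at chr7:44304821-44305640, with 6.78 and 8.13, also above every start of the gene. It was 820 bp wide with 44 CpG dinucleotides and 14 and 16 footprints, and it lay within the body of Clec11a, so that it cannot be given to Shank1 by position alone. A site in the 3' untranslated region of Shank1, at chr7:44360081-44360320, had 6.26 and 6.89 and 7 footprints in each library; it overlaps 1700008O03Rik.

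The other members had weaker distal sites. Dlg2 had intron sites 981 kb and 750 kb from the 5'-most start with 3.48 and 2.68, and 3.19 and 2.53, each above every internal start of Dlg2 in both libraries. Shank2 had intron sites at 215 kb and 73.0 kb with 3.12 and 2.28, and 2.88 and 2.36. These 4 sites were all higher in replicate 1, whereas 181 of the 216 member sites found in both libraries (83.8%) were higher in replicate 2. The same share over all peaks was not counted. Over all protein-coding genes open at the 5'-most start, the median log2 ratio of replicate 2 over replicate 1 was 0.22. Dlg1 had a site just past its 3' end, 213 kb from the 5'-most start, with 1.73 and 3.13, and an intron site at 32.4 kb with 1.17 and 1.95.

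Homer2 was stronger 16.5 kb upstream, with 0.791 and 1.44, than at its 5'-most start, and a site past its 3' end had 0.715 and 0.805. The strongest intron sites of Homer1 listed in both libraries had 0.521 and 0.596, at 14.9 kb, and 0.417 and 0.651, at 20.7 kb. None of these Homer sites reached the signals of the distal sites named for Dlg2, Shank1 and Shank2. Dlg3 had intron sites at 30.6 kb with 0.696 and 1.24 and at 1.83 kb with 0.336 and 0.473. Shank3 had a site in a coding exon at 49.4 kb with 0.843 and 1.14, and an upstream site at 1.47 kb with 0.715 and 0.921. Homer3, the shortest member at 11.5 kb, had no site in its body other than its 5'-most start, and its strongest flanking sites, 13.8 kb and 13.4 kb upstream within Sugp2, had 0.895 and 1.12, and 0.867 and 0.645.

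**Figure D2:**
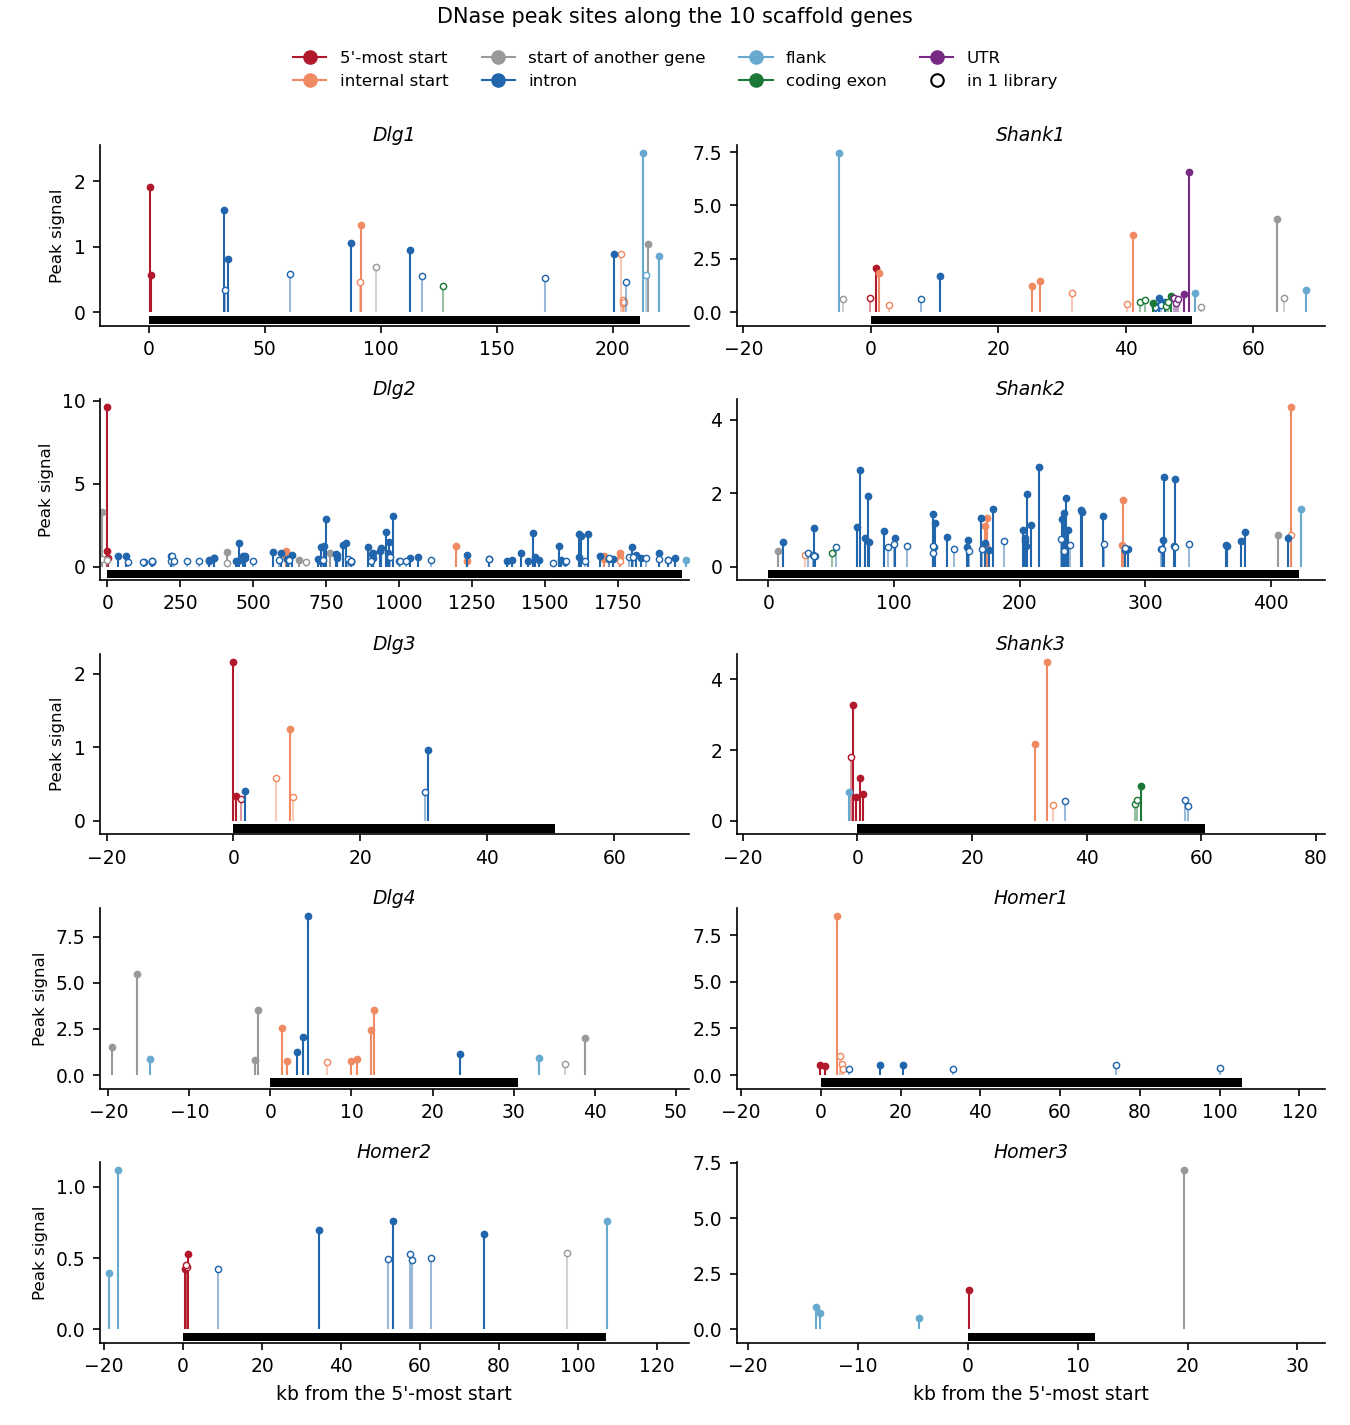
Every peak site in the regions of the 10 genes, by distance from the 5'-most start in kb and by mean signal over the libraries that list it, with the gene body as a black bar and open circles for sites listed in 1 library; the signal axis differs between genes. The highest sites of Dlg4 (7.59 and 9.64) and Shank1 (6.78 and 8.13) lie away from their annotated starts, and Dlg2 and Shank2 carry sites through most of the body.

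Peaks of both libraries merged into 339 sites, of which 209 were in introns, 51 at internal starts, 24 at starts of other genes, 22 at 5'-most starts, 17 in flanks, 11 in coding exons and 5 in untranslated regions, all 5 of these in Shank1. Dlg2 held 101 of the intron sites and Shank2 held 67. Sites at 5'-most starts had a median GC content of 67.2% and intron sites 49.5%.

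Per 100 kb of region, Shank1 had 35.4 peaks in replicate 1 and 31.0 in replicate 2, and Dlg4 had 28.3 and 24.1, the 98.6th and 96.2nd percentiles among protein-coding genes. These regions include the flanks, and 4 sites of Shank1 and 6 of Dlg4 lay at starts of other genes. Dlg2 held the most peaks, 105 and 107, yet only 5.22 and 5.32 per 100 kb. Its density was the lowest of the 10 in both libraries. Shank2, with 66 and 73 peaks, had 14.3 and 15.8 per 100 kb, and Shank3 had 13.9 and 8.94. The other 5 members lay between 5.50 and 9.70. The median over the members was 8.93, against 8.83 over all genes.

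**Figure D3:**
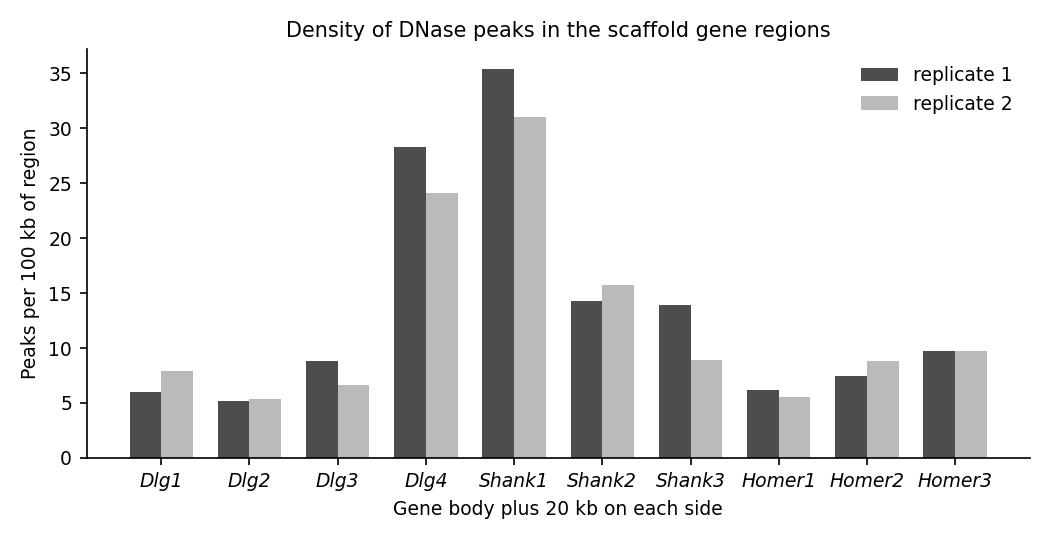
Peaks per 100 kb of gene body plus 20 kb on each side for the 10 genes, with 1 bar per library and no error, since each bar is a count. Shank1 (35.4 and 31.0) and Dlg4 (28.3 and 24.1) stand above the other 8 genes in both libraries.

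The member regions held 761 footprints in replicate 1 and 754 in replicate 2, or 2.67 and 2.64 per peak, against 2.52 and 2.44 over all peaks. A footprint lay in a peak of the 5'-most start in both libraries for 7 of 10 members, against 60.4% of all genes. The exceptions were Dlg4 and Shank2, which had no peak there, and Homer2, with 9 footprints in replicate 1 and 0 in replicate 2. At start sites listed in both libraries, 93 of 158 footprints of replicate 1 (58.9%) and 92 of 171 of replicate 2 (53.8%) overlapped one of the other library. For Homer3 this was 6 of 7 and 6 of 6, for Shank1 13 of 15 and 13 of 18, and for Dlg2 12 of 32 and 11 of 41. For Homer2 it was 0 of 6 in replicate 1, and replicate 2 had no footprint there.

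Between libraries, 78.6% of the member peaks of replicate 1 and 77.6% of those of replicate 2 overlapped a peak of the other, against 78.7% and 76.3% over all peaks. Of the 339 sites, 216 were in both libraries and 123 in 1, and those in 1 library were weak, with medians of 0.403 for the 59 of replicate 1 and 0.485 for the 64 of replicate 2. The strongest of them was a Shank3 site 1.10 kb upstream of the 5'-most start with 1.79 in replicate 2; the authors' interval file of replicate 1 gave that stretch a false discovery rate of 6.76e-10 although no peak was listed. In Dlg1, 4 peaks around a retained-intron start 204 kb in, the highest at 0.885, were listed in replicate 2 alone, and replicate 1 had no interval under a false discovery rate of 0.05 there. Signals were higher in replicate 2 at the strongest start of 8 of 10 members, Dlg1 and Shank1 being the other two. The median log2 ratio of replicate 2 over replicate 1 was 0.38 over the member sites (SD 0.40) and 0.37 at the open 5'-most starts of the members, against 0.22 at those of all genes (SD 0.32). Signals were multiples of a larger step in replicate 2 (0.00614) than in replicate 1 (0.00474). The part of this scaling in the higher signals of replicate 2 was not tested.

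**Figure D4:**
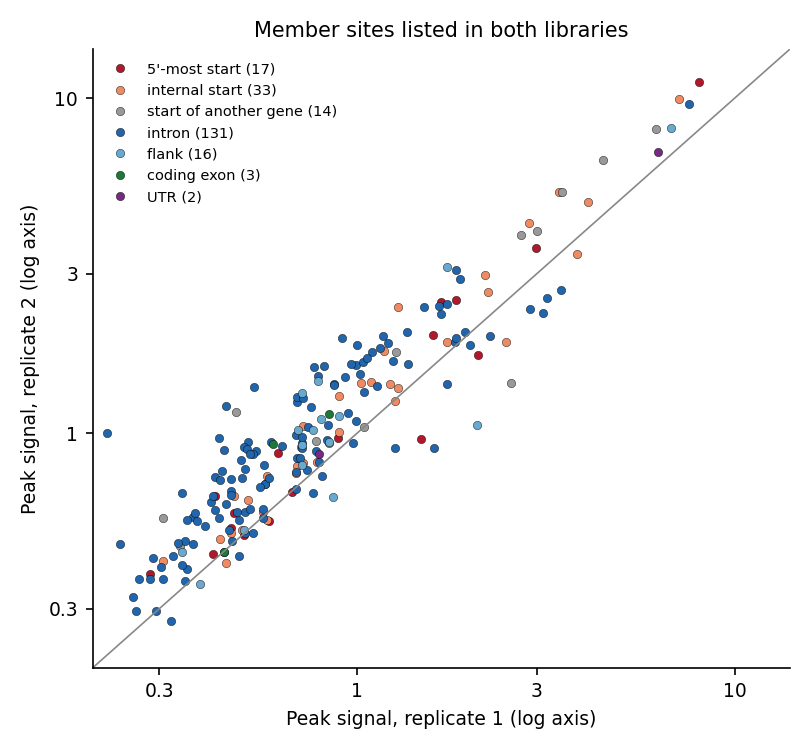
Peak signal in replicate 2 against replicate 1 (both log axes) for the 216 member sites found in both libraries, coloured by place, with the line of equal signal. Most sites (181) lie above the line, and the 131 intron sites span both sides of it.

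The sequence around the starts differed between members. In the 300 bases that begin 250 bases before the 5'-most start, Shank3 had 41 CpG dinucleotides and a GC content of 81.7% and Shank1 had 19 CpG, while Homer1 and Dlg4 had 3 each and Shank2 had 2; the median over all genes was 11. In the 300 bases centred on the strongest start peak, Homer1 had 29 CpG and Dlg1 27, and the other 8 members had between 6, in Shank1, and 23, in Dlg2, against a median of 24 over the 14575 genes with a start peak that was measured so.

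Short consensus words were searched on both strands in those windows, and a match is no evidence of binding. The GC box GGGCGG was in 4 members at the strongest start peak, Dlg1, Dlg2, Shank2 and Homer3, against 65.2% of genes. The E-box CACGTG was in Dlg1 and Dlg2, against 10.6%, and the YY1 word AAGATGGCG was in the same 2 genes, against 3.54%. Both words fell on Dlg genes alone among the members, but the Dlg2 matches lay in the site that overlaps the body of Tmem126b. In that printed site, 0 of 6 bases of the E-box and 1 of 9 bases of the YY1 word were in capitals. The AP-1 word TGANTCA was in Shank2 and Homer2, against 4.16%, the ETS word CCGGAAGT was in Homer1, against 7.94%, and the neuronal basic helix-loop-helix word CAGATG was in Homer2, against 10.9%. Of these last words, AP-1 and CAGATG shared Homer2. In the printed Shank2 site, the AP-1 words at bases 132 and 147 and the GC box at base 71 had 0 bases in capitals. The ETS word of the Homer1 site had 2 of 8. The full cAMP response element TGACGTCA, the NRF1 core GCGCATGCG, the MEF2 word CTATTTTTA and the RE1 word TTCAGCACC were in no member, against 3.90%, 3.89%, 0.233% and 0.611%. In the 5'-most start windows the GC box was in 3 members, against 43.0%, the E-box in Dlg1 and Dlg2, against 7.75%, and the other words named here in none.

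Another 3 words were added after the printed footprints had been read, so that their matches there are descriptions chosen on these sites. The short cAMP response element TGACG occurs 3 times in the Homer1 site, from bases 161, 177 and 203, and the last lies wholly in capitals. It also lies wholly in capitals at base 108 of the Shank3 5'-most site, on the minus strand. Outside capitals it lies at base 110 of the Shank3 internal site. At the strongest start peak it was in 2 members, Shank3 and Homer1, against 34.1% of genes. The X-box arm GTTGCC, part of the element bound by RFX factors, lies wholly in capitals at base 89 of the Shank2 site, at base 124 of the Shank3 5'-most site and, on the minus strand, at base 96 of the Shank3 internal site. It was in 4 members at the strongest start peak, Dlg4, Shank2, Shank3 and Homer3, against 14.0% of genes. The CTCF core CCACNAGNT lies wholly in capitals at base 87 of the Dlg2 intron site, and was also found in the other Dlg2 intron site, at 750 kb, and in the Shank2 intron site at 215 kb; 5.88% of 300-base windows on all peaks of replicate 1 hold it. The Dlg4 intron site holds the GC box 4 times, 3 of them wholly in capitals, and the Dlg2 start site holds it 3 times, 1 of them wholly in capitals.

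Other genes of the postsynaptic density were taken from a list of 16 scaffold, adaptor and signalling genes. All 16 were open at the 5'-most start, against 61.8% of all genes; 14 were with the stricter peak list, without Iqsec2 and Begain, and 15 within 500 bp, without Dlgap3. With the larger list and 1000 bp, all 16 had a footprint there in both libraries, against 60.4%. The highest were Baiap2, an actin regulator that binds Shank and PSD-95, with 8.90 and 11.9, Sipa1l1, a Rap regulator also known as SPAR, with 6.72 and 8.95, and Gphn, the scaffold of inhibitory synapses, with 4.93 and 5.91. The Dlgap genes, which encode the link between Dlg and Shank proteins, lay between 0.976 and 2.05 at the 5'-most start in replicate 1 and between 1.23 and 1.98 in replicate 2. An internal start was stronger in both libraries in 4 of the 16, Dlgap2 and Dlgap4 among them, against 14.5% of genes with internal starts. For Dlgap4 the strongest start had 6.48 and 6.28.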

How the data were processed

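DNase-seq files of 2 libraries of 1 group were used. The deposited peak lists give a signal per peak, taken from the larger of the lists of each library; per the file headers and labels' protocols, each library was processed on its own by the authors in mm10. The deposited interval files give a p-value column holding false discovery rates up to 0.05, and the score column of the deposited footprints held 0.01 throughout and was not used. No aligner, caller, version or depth is given in the sources used here. Signals in both libraries were multiples of 0.00474 and 0.00614; were a step 1 read, the Homer2 start peak would be 100 and 94 steps, with counting errors of 10.0% and 10.3%, and the Homer1 coding start 1502 and 1617 steps, with 2.58% and 2.49%.

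Peaks were given to the nearest start group of a member within 1000 bp, then to a start of another gene within that distance, and otherwise placed by their centre. Peaks of the libraries overlapping by 1 bp formed a site. Sequence was read from GRCm38.p6, the assembly mm10 names, with pysam 0.24.0 and samtools 1.23.1; counts used Python 3.11.15, NumPy 2.4.6 and pandas 2.3.3, and figures matplotlib 3.10.9. On simulated peaks centred on a start of each of 634 of 1569 start groups, 99.7% were given back. This checks the assignment step alone and does not cover peaks that lie away from a start. No test was made, since 1 group of 2 libraries holds no comparison. The members and lists were chosen with earlier results of these data known. All members, the 3 strongest other postsynaptic genes and any not open, and the 2 strongest distal sites per member were named by rule; the Dlgap genes were named after their values were seen. Not every listed gene is reported here by name. The alternatives were the stricter peak list, windows of 500 and 2500 bp, starts of protein-coding transcripts, flanks of 0 and 50 kb, 50% overlap and single libraries.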

Additional observations from a re-analysis of the deposited data

How the results depend on the processing

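No paired analysis was possible because there is 1 group. With starts of protein-coding transcripts only, open internal start groups fell to 11 (19 with all starts). The median over members of their strongest internal start signal was 1.58 (3.49). Members with a stronger internal start were Dlg2, Dlg4, Shank2 and Shank3. The Dlg2 5'-most signal was 0.930 (9.61), its strongest peak then lying just over 1000 bp from the coding start. The 5'-most signal of Homer1 was 8.52 (0.558). Within 500 bp the median 5'-most signal was 1.47 (1.99 at 1000 bp), Shank1 was no longer open there, and Shank3 had 1.22 (3.29); within 2500 bp Dlg4 was open there. The stricter peak list gave 166 peaks (285.5 per library on average) and lost Homer1 and Homer2 at the 5'-most start, and Iqsec2 and Begain of the 16 other genes (14 open); Dlgap3 was lost within 500 bp (15 open). The shared percentage was 76.7 in gene bodies alone and 67.1 at 50% overlap of both peaks (78.1). Besides the values per gene given here, the strongest internal start of Shank1 moved to 1.22 (3.63) within 500 bp and that of Dlg4 to 8.62 (3.55) within 2500 bp. The other 5'-most signals of members that could be computed stayed within 1 SD under the list, window and transcript alternatives; with 2 libraries, leaving 1 out cannot move a mean beyond it. Each library alone gave 8 members open at the 5'-most start and 5 with a stronger internal start. Read depth was not given, so its limits could not be measured.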
